A study of Mus musculus with 12 samples.

Results

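Chemokines are small secreted or membrane-bound proteins that guide the movement of cells, and each acts through receptors on the cells it attracts. The genes described here are the chemokines and chemokine receptors of the mouse. They are all listed genes whose symbol starts with Ccl, Cxcl, Ccr, Cxcr or Ackr and a digit, together with Xcl1, Xcr1, Cx3cl1, Cx3cr1 and Ccrl2. The rule found 61 of the 21960 genes in the files, of which 37 are ligands, 19 are signaling receptors and 5 are atypical receptors. The rule itself uses symbols and no measured value, but it was set with earlier results of these data known.

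The data are RNA sequencing of 12 whole mammary tumors of female mice, with 3 tumors in each of 4 treatment groups. Each tumor is treated as 1 replicate. The mice were of a C57BL/6 background and carried the PyMT oncogene (polyoma virus middle T) under the promoter of the mouse mammary tumor virus (MMTV), which is active in mammary epithelium, so that tumors arise without transplantation. Their ages at sampling are not given in the sources used here. Mice of the IgG1 group received the control antibody, and mice of the anti-PD-1 group received an antibody against the checkpoint receptor PD-1. These 2 groups were treated from a tumor diameter of 0.6 cm on, at first with 20 mg/kg antibody and later with 10 mg/kg. DOX/IgG1 and DOX/anti-PD-1 mice received the chemotherapy doxorubicin at 5 mg/kg, and 10 mg/kg of the same antibodies, from a tumor diameter of 1 cm. Doxorubicin and its antibody were given weekly, and the antibody without doxorubicin at shorter intervals. The sample labels give 5 weeks for all 12 tumors. Any comparison of a doxorubicin group with a group without it thus also differs in size at the start, the opening antibody dose and the schedule, and these cannot be told apart. Levels are given in TPM, a relative abundance of transcripts that accounts for gene length, so that genes can be compared.

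Chemokines fall into families named by the spacing of their cysteines, and many lie in gene clusters. Inflammatory chemokines are made on demand and draw in monocytes, neutrophils or activated T cells, while homeostatic chemokines such as CXCL12 and CCL21 hold or home cells in tissues under normal conditions. Atypical receptors bind chemokines without the usual signaling and remove or display them. In mammary tumors, ligands of CCR2 are known to recruit monocytes that become macrophages, and CXCL9 and CXCL10, induced by interferon gamma, draw T cells that carry CXCR3.

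The tumors expressed the markers of their labelled tissue. The 7 epithelial markers summed to between 2034 and 3670 TPM per tumor, with Epcam the most abundant at a mean of 729 TPM and none of the 7 at 0 in every tumor. Markers of other cells were present too, so that each level is a sum over cell types. Fewer cells of a type and less RNA per cell cannot be told apart in such samples.

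The tumor DOX/IgG1 1 stood apart from the rest. It had the fewest genes above 0, 13856, against 14230 to 15426 in the other tumors. There are 43 members with 1 TPM or more in 3 or more tumors. Of these, it was the highest tumor in 9 and the lowest, ties included, in 18, and 12 of them were listed at 0 in it. No other tumor was the highest in more than 6 or the lowest in more than 13 of them. In the comparisons that use DOX/IgG1 1, counts of members are therefore given with and without it. The column names in the deposited files end in 1 way for the 3 DOX/anti-PD-1 tumors and in another for the other 9. The name of 1 column also holds the word test. What these marks mean is not given in the sources used here. In comparisons that use the DOX/anti-PD-1 group, the ending and the treatment cannot be told apart.

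Above 1 TPM in all 12 tumors were 20 of the 61 members, and 29 others were above 1 TPM in some tumors. The last 12 did not pass 1 TPM in any tumor. Over the 12 tumors, the mean was above 1 TPM for 39 members (63.9%), beside 64% of all 21960 genes. The share was 70.3% for the ligands (26 of 37), 42.1% for the signaling receptors (8 of 19) and 100% for the 5 atypical receptors. Means above 10 TPM were reached by 9 ligands and 4 signaling receptors. The median of the means was 5.61 TPM for ligands, 0.485 TPM for signaling receptors and 6.67 TPM for atypical receptors, with 5.74 TPM for all genes.

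**Figure D1:**
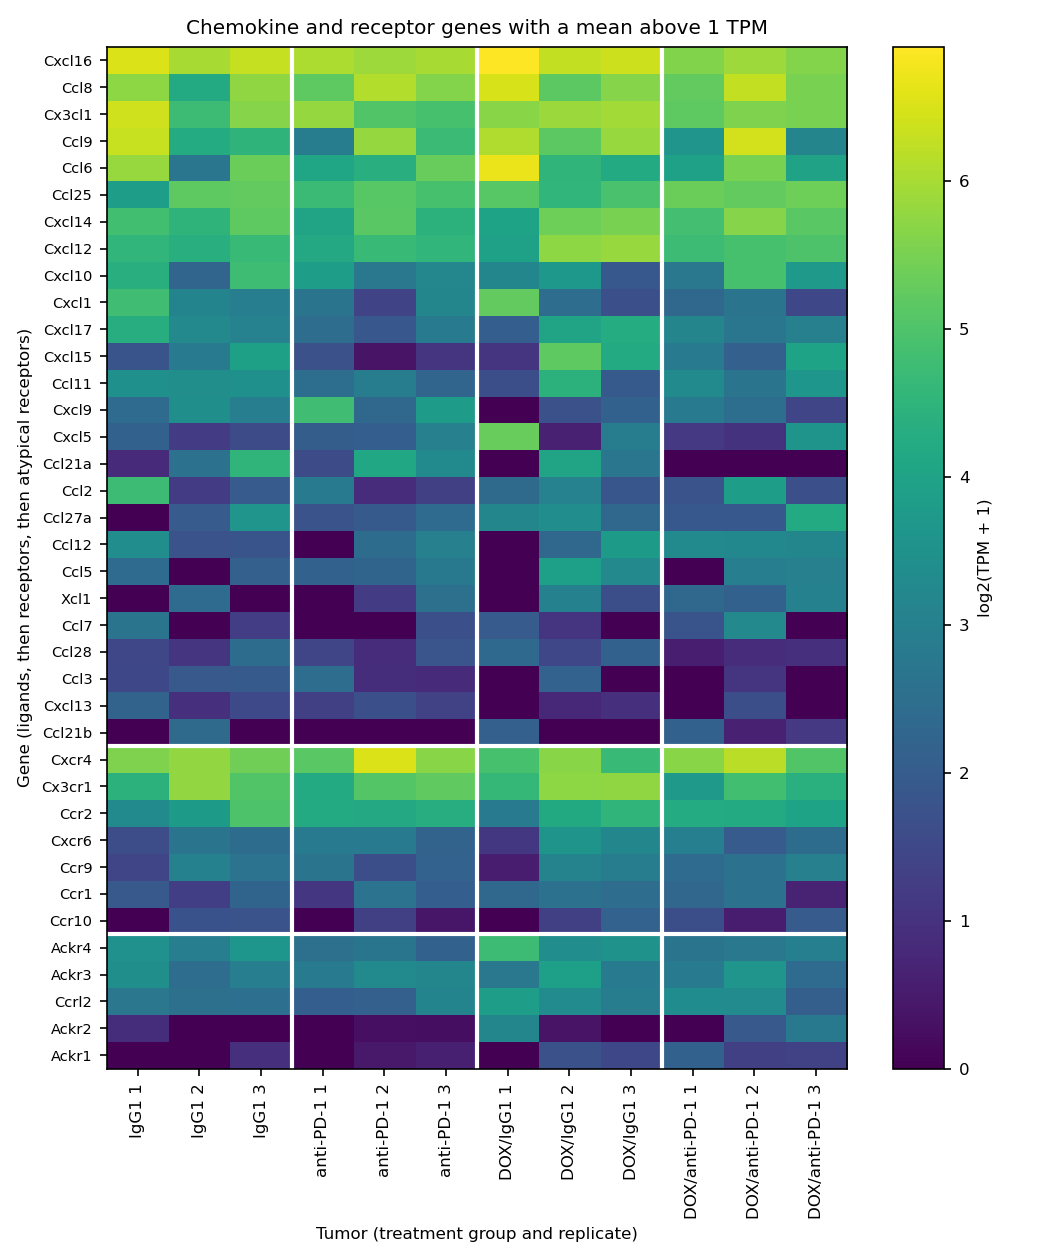
Each row is a member with a mean above 1 TPM and each column is 1 tumor, with the color giving log2(TPM + 1) and white lines parting the groups and the kinds of gene. Cxcl16 and Cxcr4 are bright in every tumor, while genes lower in each block are dark in some tumors and not in others.

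Among the ligands, Cxcl16 had the highest mean, 71.1 TPM. It encodes a membrane-bound chemokine that binds CXCR6. Next came Ccl8, a CC chemokine of the monocyte chemoattractant family, at 50.5 TPM, and Cx3cl1, the membrane-bound fractalkine, at 47.5 TPM. Ccl9 and Ccl6, CC chemokines of rodents, had means of 39.0 and 32.7 TPM, and Ccl25, the ligand of CCR9, had 31.4 TPM. Cxcl14 and Cxcl12 followed at 30.5 and 28.1 TPM, and Cxcl10 at 12.2 TPM.

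These ligands differed in how even they were. Cxcl16 ranged from 47.4 to 119 TPM, a ratio of 2.51 between the highest and the lowest tumor, and Ccl25 from 13.7 to 41.1 TPM. Ccl6 ranged from 5.59 TPM in IgG1 2 to 104 TPM in DOX/IgG1 1. Ccl9 levels were 78.8, 18.0 and 21.7 TPM in the IgG1 tumors and 6.42, 55.8 and 25.1 TPM in the anti-PD-1 tumors. With doxorubicin, Ccl9 stood at 67.0, 34.7 and 56.9 TPM under IgG1 and at 11.1, 85.4 and 7.78 TPM under anti-PD-1. High and low tumors of Ccl9 thus occurred within 3 of the 4 groups, and all groups overlapped. Ccl8 also overlapped between all groups, from 17.8 TPM in IgG1 2 to 89.5 TPM in DOX/IgG1 1.

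The other ligands above 1 TPM in every tumor were Cxcl1, a ligand of the neutrophil receptor CXCR2, Cxcl17, a chemokine of mucosal surfaces, and Ccl11, the eotaxin. Cxcl1 was uneven, with 26.9, 7.73 and 6.72 TPM in the IgG1 tumors and 5.35, 1.68 and 8.02 TPM in the anti-PD-1 tumors. Under doxorubicin it stood at 37.0, 4.57 and 2.21 TPM with IgG1 and at 4.08, 5.26 and 1.81 TPM with anti-PD-1. The tumors IgG1 1 and DOX/IgG1 1 were high, the other 10 stood at 8.02 TPM or less. IgG1 lay above DOX/anti-PD-1, and all other pairs of groups overlapped. Ccl2, the main ligand of CCR2, was above 1 TPM in 11 tumors and ranged from 0.82 TPM in anti-PD-1 2 to 25.6 TPM in IgG1 1. Cxcl5, another ligand of CXCR2, ranged from 0.54 to 38.4 TPM, both within the DOX/IgG1 group.

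Another 14 ligands had means above 1 TPM without passing it in every tumor. In order of their means, from 8.78 TPM down to 1.06 TPM, they were Cxcl15, Cxcl9, Cxcl5, Ccl21a, Ccl2, Ccl27a, Ccl12, Ccl5, Xcl1, Ccl7, Ccl28, Ccl3, Cxcl13 and Ccl21b. Xcl1, which T cells and NK cells make to attract dendritic cells through XCR1, was above 1 TPM in 8 tumors and listed at 0 in the other 4, and Xcr1 passed 1 TPM in 2 tumors. Ccl4, Cxcl2, Ccl19, Ccl24, Ccl17 and Ccl20 had means below 1 TPM and passed it in 1 to 6 tumors, as did the receptors Xcr1, Cxcr3, Ccr3 and Ccr6. Ccl5, made by T cells and NK cells, was at 4.30, 0 and 3.38 TPM with IgG1, 3.42, 3.65 and 5.91 TPM with anti-PD-1, 0, 14.0 and 8.47 TPM with DOX/IgG1 and 0, 6.72 and 7.10 TPM with DOX/anti-PD-1. It was listed at 0 in 1 IgG1 tumor and in replicate 1 of both doxorubicin groups, was highest in DOX/IgG1 2, and its groups overlapped.

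Among the signaling receptors, Cxcr4 led with a mean of 48.1 TPM. CXCR4 is the receptor of CXCL12 on leukocytes and on many tumor cells. Its levels were 46.6, 54.5 and 41.8 TPM in the IgG1 group and 34.4, 91.7 and 50.5 TPM in the anti-PD-1 group. With doxorubicin they were 28.9, 50.7 and 24.7 TPM under IgG1 and 49.8, 71.7 and 31.5 TPM under anti-PD-1. Replicate 2 was the highest of each group, and all groups overlapped.

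Cx3cr1, the fractalkine receptor of monocytes and macrophages, had a mean of 31.7 TPM. Ccr2, which monocytes use to leave the bone marrow, had 16.8 TPM. Cxcr6 and Ccr9, both found on T cells, had 5.18 and 4.67 TPM. Ccr1 and Ccr10 also had means above 1 TPM, at 3.37 and 1.43 TPM. Ccr2 ranged from 6.32 TPM in DOX/IgG1 1 to 30.8 TPM in IgG1 3, and its groups overlapped in all comparisons.

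Other receptors of lymphocytes and neutrophils were low. Cxcr3, the receptor of CXCL9 and CXCL10, had a mean of 0.48 TPM and passed 1 TPM in 1 tumor. The mean was 0.30 TPM for Ccr7, which leads cells to lymph nodes, and 0.24 TPM for Cxcr2, the main neutrophil receptor, and neither passed 1 TPM in any tumor. The other receptors that did not pass 1 TPM were Cxcr1, Cxcr5, Ccr4, Ccr8 and Ccr1l1. Among the 5 ligands that did not, Ccl22 and Cxcl3 had means of 0.21 and 0.07 TPM, and Ccl1, Ccl26 and Ccl27b were listed at 0 in all 12 tumors. Ccr6 was above 0 only in the 3 anti-PD-1 tumors, at 1.37, 0.53 and 0.37 TPM, and reached 1 TPM in too few tumors to be tested.

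Of the atypical receptors, Ackr4, a scavenger of CCL19, CCL21 and CCL25, had a mean of 8.84 TPM. Ackr3, which takes up CXCL12, had 7.64 TPM, and Ccrl2, which binds chemerin, had 6.67 TPM, and these 3 were above 1 TPM in every tumor. Ackr2, a scavenger of inflammatory CC chemokines, and Ackr1, which binds many chemokines on venules and red cells, had means of 1.53 and 1.03 TPM. Ackr2 reached 8.01 TPM in DOX/IgG1 1. Its level was 2.83 TPM in DOX/anti-PD-1 2, 5.99 TPM in DOX/anti-PD-1 3 and below 1 TPM in the 9 other tumors.

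The levels of all 61 members summed to 690, 452 and 643 TPM in the IgG1 tumors and 436, 581 and 509 TPM in the anti-PD-1 tumors. The sums were 731, 702 and 681 TPM in the DOX/IgG1 tumors and 429, 709 and 495 TPM in the DOX/anti-PD-1 tumors. The DOX/IgG1 sums were high and close together, and they overlapped with those of IgG1 and DOX/anti-PD-1 but not with those of anti-PD-1. Signaling receptors summed to between 70.7 TPM in DOX/IgG1 1 and 174 TPM in anti-PD-1 2. Atypical receptors summed to 14.4, 18.3 and 19.7 TPM under anti-PD-1 alone and to 24, 30.3 and 22 TPM under DOX/anti-PD-1, which do not overlap. Of all tested genes, 11.1% were likewise higher without overlap between these groups. The atypical receptor sums of 26.7, 16.2 and 23.9 TPM under IgG1 and of 52.7, 35.1 and 25.3 TPM under DOX/IgG1 do overlap.

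Levels of the members spread widely between tumors of the same group. Across the 43 tested members, the median of the residual SD around the group means was 0.82 on the log2 scale, beside 0.48 for all 14735 genes that passed the same minimum. Among genes with a mean above 10 TPM, the median was 0.60 for 13 members and 0.40 for all 9393 genes. Cxcl16 had the smallest SD of the tested members, 0.24, followed by Ccl25 with 0.43 and Ackr4 with 0.44. The largest were 1.52 for Ccl21a and Ccl5 and 1.42 for Cxcl5.

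By position in the genome, 40 of the 61 members lie in 10 runs in which neighbors are at most 1 Mb apart (GRCm38, GENCODE annotation). The run at chr11:82035571-82305690 holds Ccl2, Ccl7, Ccl11, Ccl12, Ccl8 and Ccl1, of which 5 had means above 1 TPM. Within it the levels ran from 50.5 TPM for Ccl8 to 0 for Ccl1. Cxcl5, Cxcl3, Cxcl15, Cxcl1 and Cxcl2 lie at chr5:90759360-90905938, and Cxcl9 and Cxcl10 lie side by side at chr5:92321347-92348889. Some members are hard to measure by short reads. Ccl21a and Ccl21b, and Ccl27a and Ccl27b, are near-identical copies at chr4:41769467-42773993. Among the ligands, Ccl2, Ccl6, Ccl19, Ccl21a, Ccl25, Ccl27a, Cxcl10, Cxcl15, Cxcl16, Cxcl17 and Xcl1 overlap genes on the opposite strand. So do Ackr4, Ccr10, Cxcr5 and Cxcr6. Ccr9 and Cx3cr1 overlap genes on both strands, and Ackr1 overlaps Cadm3 on the same strand. The libraries were stranded, and RSEM, which was used for quantification, can divide reads shared by several genes. The strand setting of that step is not given in the sources used here.

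RefSeq promoter windows (GRCm38.p6) matched 47 of the 61 members. The 250 bases before the start site were searched on both strands for 3 motifs. GAAANNGAA, the core of the interferon-stimulated response element, was in the windows of 8 of the 47 matched members (17%), beside 8.18% of all 27025 genes with windows. These members were Ccl1, Ccl3, Ccl19, Ccr2, Cxcl9, Cxcl10, Cxcl14 and Cxcr1. GGGANNTTC, the core of the site bound by NF-kB, was in 8 members (17%), beside 3.7% of all genes, namely Ccl1, Ccr3, Cxcl1, Cxcl2, Cxcl3, Cxcl9, Cxcl10 and Cxcr2. TTCNNNGAA, the palindrome bound by STAT proteins, was in Ccl17, Ccr1l1, Ccr6 and Cxcl14, 4 members (8.5%) beside 8.13% of all genes. Where a gene had several windows, a match in any of them counted. The windows of Cxcl9 and Cxcl10 are shown because these neighbors hold the same 2 motifs and their levels are compared further on. That of Cxcl1 is shown as a ligand with the NF-kB core and no interferon core. Their 250 bases run 5′ to 3′ on the strand of the gene, at chr5:92328080-92328329 (minus strand) for Cxcl9, chr5:92348890-92349139 (minus strand) for Cxcl10 and chr5:90890995-90891244 (plus strand) for Cxcl1. Capitals mark the motifs on either strand.
Cxcl9: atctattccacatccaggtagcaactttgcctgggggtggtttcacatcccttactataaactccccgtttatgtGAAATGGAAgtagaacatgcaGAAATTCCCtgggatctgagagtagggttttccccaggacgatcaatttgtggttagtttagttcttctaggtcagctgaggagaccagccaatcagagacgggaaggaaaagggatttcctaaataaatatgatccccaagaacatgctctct
Cxcl10: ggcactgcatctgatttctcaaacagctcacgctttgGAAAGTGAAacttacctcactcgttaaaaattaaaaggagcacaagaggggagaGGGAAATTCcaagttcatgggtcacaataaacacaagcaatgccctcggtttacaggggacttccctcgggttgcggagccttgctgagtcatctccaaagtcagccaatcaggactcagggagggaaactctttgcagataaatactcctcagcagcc
Cxcl1: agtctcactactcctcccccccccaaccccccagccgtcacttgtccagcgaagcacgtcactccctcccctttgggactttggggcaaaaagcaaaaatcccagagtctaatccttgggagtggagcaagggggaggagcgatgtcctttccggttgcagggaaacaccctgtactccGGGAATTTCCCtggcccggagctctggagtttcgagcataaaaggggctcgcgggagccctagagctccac
Counted from the start site, the interferon core begins at position -175 in Cxcl9 and -213 in Cxcl10, on the strand of the gene. The capitals in Cxcl1 are 2 matches to the NF-kB core, 1 on each strand, that overlap. None of the 3 motifs overlaps another one in these windows, and a match describes the letters only.

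In each comparison that follows, a log2 fold change is the mean of log2(TPM + 1) in the first group minus that in the second, with its standard error (SE). A gene was called when limma gave it an adjusted p below 0.1 and a log2 fold change beyond 1 in either direction. The fit covered all genes with 1 TPM or more in 3 or more tumors of the comparison. Groups are said to be apart when no value of the first overlaps the values of the second. With 3 tumors against 3, such a gene has an exact permutation p of 0.1, two-sided, the smallest that this design allows.

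PD-1 blockade alone is addressed by the anti-PD-1 and IgG1 tumors. Ccl11, Cxcl15, Cxcl17 and Ackr4 were lower in all anti-PD-1 tumors than in any IgG1 tumor. Ccl11, the eotaxin that attracts eosinophils, was at 4.67, 6.58 and 3.77 TPM with anti-PD-1 and at 10.2, 9.63 and 9.97 TPM with IgG1. The IgG1 tumors were close together, with a mean of 9.92 ± 0.26 TPM (SD, n = 3), beside 5.01 ± 1.43 TPM (SD, n = 3) with anti-PD-1. The log2 fold change was -0.89 (SE 0.33).

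Cxcl15, a chemokine known from lung epithelium, was at 2.29, 0.29 and 1.06 TPM with anti-PD-1 and at 2.49, 6.15 and 14.2 TPM with IgG1. The nearest tumors of the groups, anti-PD-1 1 and IgG1 1, were close, and the log2 fold change was -1.81 (SE 0.59). Cxcl17 was at 4.57, 2.64 and 6.32 TPM and at 18.6, 8.49 and 7.32 TPM, with a log2 fold change of -1.13 (SE 0.44). Here IgG1 1 was far above the other tumors, without it the log2 fold change was -0.75, and the lowest IgG1 tumor exceeded the highest anti-PD-1 tumor by little. Ackr4 was at 4.91, 5.40 and 3.39 TPM with anti-PD-1 and at 10.3, 6.80 and 11.4 TPM with IgG1, and its log2 fold change was -0.91 (SE 0.36).

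None of these differences passed the test over all genes. Of the 39 tested members, limma called 0, beside 0 of 13692 genes (0%), and the smallest adjusted p of a member was 0.996. At an unadjusted p below 0.05 were 4 members (10.3%), beside 630 genes (4.6%), and 2 to 5 members when each tumor was left out in turn. Groups were apart and higher in 0 members, beside 3.64% of all genes, and apart and lower in 4, beside 6.24%. In both directions together this was 10.3% of the tested members and 9.88% of all genes. The median log2 fold change was -0.18 over the tested members and -0.03 over all genes. When each tumor was left out in turn, the members' median ran from -0.21 to 0.01. It was -0.06 without IgG1 1, -0.02 without IgG1 3 and above 0 only without anti-PD-1 1.

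Markers of several kinds of cell were also lower with anti-PD-1. All 7 epithelial markers were lower, 1 of them at an unadjusted p below 0.05, as were all 5 adipocyte markers, all 4 of skeletal muscle and 4 of 5 tested markers of macrophages and monocytes, while 3 of 4 lymphatic endothelial markers were higher. All 6 fibroblast markers were lower, 1 of them at an unadjusted p below 0.05, and after scaling by the median of ratios 5 of the 6, with Dcn turned. They summed to 789, 846 and 1312 TPM in the IgG1 tumors and 638, 556 and 449 TPM in the anti-PD-1 tumors. Col1a1 was the most abundant, at a mean of 358 TPM, and 0 of the 6 were at 0 in every tumor. The 5 endothelial markers, led by Pecam1 at 37.9 TPM and with none at 0 in every tumor, were lower too. They summed to 101, 101 and 121 TPM with IgG1 and to 79.2, 79.7 and 84.5 TPM with anti-PD-1. The sums of the epithelial, adipocyte, skeletal muscle, and macrophage and monocyte lists overlapped between the groups. The 1 tested NK cell marker was higher, at 0.90, as were the 2 tested salivary and the 2 tested platelet markers. Of 4 tested T cell markers 1 was higher, at an unadjusted p below 0.05, and 3 were lower. The part of all these cells in the lower ligands and receptors was not tested.

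Doxorubicin under the control antibody is addressed by the DOX/IgG1 and IgG1 tumors. Cxcl9 was lower in every DOX/IgG1 tumor, and Ccr1 and Ccrl2 were higher in every one. Cxcl9 was listed at 0 in DOX/IgG1 1 and was at 2.29 and 3.45 TPM in DOX/IgG1 2 and 3, while the IgG1 tumors had 4.31, 9.82 and 6.78 TPM. Its log2 fold change was -1.64 (SE 0.63), and without DOX/IgG1 1 it was -0.999 (SE 0.47), with the groups still apart. With anti-PD-1, Cxcl9 was at 26.4, 4.07 and 12.8 TPM without doxorubicin and at 6.05, 4.65 and 1.74 TPM with it. The highest value was that of anti-PD-1 1, and the lowest anti-PD-1 tumor lay within the range of DOX/anti-PD-1.

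Its neighbor Cxcl10 was lower on average in the same comparison, with a log2 fold change of -0.87 (SE 0.71) that ran from -1.63 to -0.36 when each tumor was left out in turn, but its groups overlapped. Cxcl10 was at 19.0, 3.81 and 26.3 TPM in the IgG1 tumors, 13.7, 5.81 and 8.13 TPM in the anti-PD-1 tumors, 8.03, 11.9 and 2.71 TPM in the DOX/IgG1 tumors and 5.84, 29.0 and 12.0 TPM in the DOX/anti-PD-1 tumors. All groups overlapped, and the highest tumor of Cxcl10 was DOX/anti-PD-1 2, where Cxcl9 stood at 4.65 TPM. The difference between the log2 fold changes of these genes was not tested.

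Ccr1, a receptor of CCL3 and CCL5 on myeloid cells, was at 3.94, 4.96 and 4.58 TPM with doxorubicin and at 2.78, 1.41 and 3.65 TPM without it. The nearest tumors differed by little, and the log2 fold change was 0.65 (SE 0.44), or 0.39 without IgG1 2. Ccrl2 was at 13.4, 8.99 and 6.52 TPM and at 5.72, 4.88 and 4.76 TPM, with a log2 fold change of 0.75 (SE 0.39). After scaling by the median of ratios, the groups of Ccrl2 overlapped. This scaling moved the median of all genes from 0.12 to 0.01 in this comparison, a shift of -0.11, and no other member lost or gained its place.

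Limma called 0 of the 36 tested members, beside 5 of 13874 genes (0.036%), and the smallest adjusted p of a member was 0.591. At an unadjusted p below 0.05 stood 1 member (2.8%), beside 7.73% of all genes, and 1 to 5 members when each tumor was left out in turn, with 5 without DOX/IgG1 1 or DOX/IgG1 2. The groups were apart and higher in 2 members, beside 9.31% of all genes, and apart and lower in 1, beside 4.64%. Together these are 8.33% of the tested members and 14% of all genes. The median log2 fold change was 0.24 over the tested members and 0.12 over all genes. When each tumor was left out in turn, the members' median ran from -0.03 without DOX/IgG1 2 to 0.37 without DOX/IgG1 1.

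Without DOX/IgG1 1, limma called 122 genes and again 0 of the 36 members, with 5 members (13.9%) at an unadjusted p below 0.05, beside 13% of all genes. Then 7 members were apart and higher, namely Ccl5, Ccr1, Ccrl2, Cxcl12, Cxcl14, Cxcl15 and Cxcr6, and Cxcl1 and Cxcl9 were apart and lower. These are 25% of the tested members, beside 32.6% of all genes, with 2 tumors against 3. Cxcl12 shows how far the tumor stood from its group, at 14.6 TPM in DOX/IgG1 1, the lowest of all tumors, and 51.7 and 56.3 TPM in the other 2, the highest of all.

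Genes of the salivary gland differed in the same comparison. All 4 salivary markers were higher with DOX/IgG1, and 2 of them were called. They summed to 6.41, 16.8 and 5.93 TPM in the IgG1 tumors and to 52.1, 98 and 113 TPM in the DOX/IgG1 tumors, with Amy1 the most abundant at a mean of 17.2 TPM and none at 0 in every tumor. The T cell list had 5 of 6 markers tested, all 5 higher and 1 at an unadjusted p below 0.05. It summed to 22.1, 14.2 and 6.69 TPM with IgG1 and to 7.30, 48.7 and 39.0 TPM with DOX/IgG1, led by Cd3e at 7.89 TPM, with none at 0 in every tumor. All 6 markers of macrophages and monocytes, cells that carry CCR1, were higher with DOX/IgG1, 1 at an unadjusted p below 0.05, and 3 of the 6 after scaling. They summed to 249, 198 and 248 TPM with IgG1 and to 207, 300 and 307 TPM with DOX/IgG1, which overlap. Of the 5 NK cell markers 3 were tested, all 3 higher at a median log2 fold change of 1.24 and 1 at an unadjusted p below 0.05. Without DOX/IgG1 1, 3 salivary markers, 1 T cell marker and 1 fibroblast marker were called, 4 of the 6 fibroblast markers were higher, 3 of them at an unadjusted p below 0.05, 5 of the 6 macrophage and monocyte markers were higher, and 3 T cell and 2 NK cell markers were at an unadjusted p below 0.05. The NK cell markers summed to 14.2, 1.31 and 3.01 TPM with IgG1 and to 6.72, 33.0 and 20.2 TPM with DOX/IgG1, led by Gzma at 5.43 TPM. Lower markers were found as well. With all tumors, 5 of 7 epithelial markers were lower, or 6 of 7 after scaling, as were 4 of 5 endothelial and 3 of 6 fibroblast markers. Each of these 3 lists had 1 lower marker at an unadjusted p below 0.05. The part of such cells in the chemokine values was not tested.

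**Figure D2:**
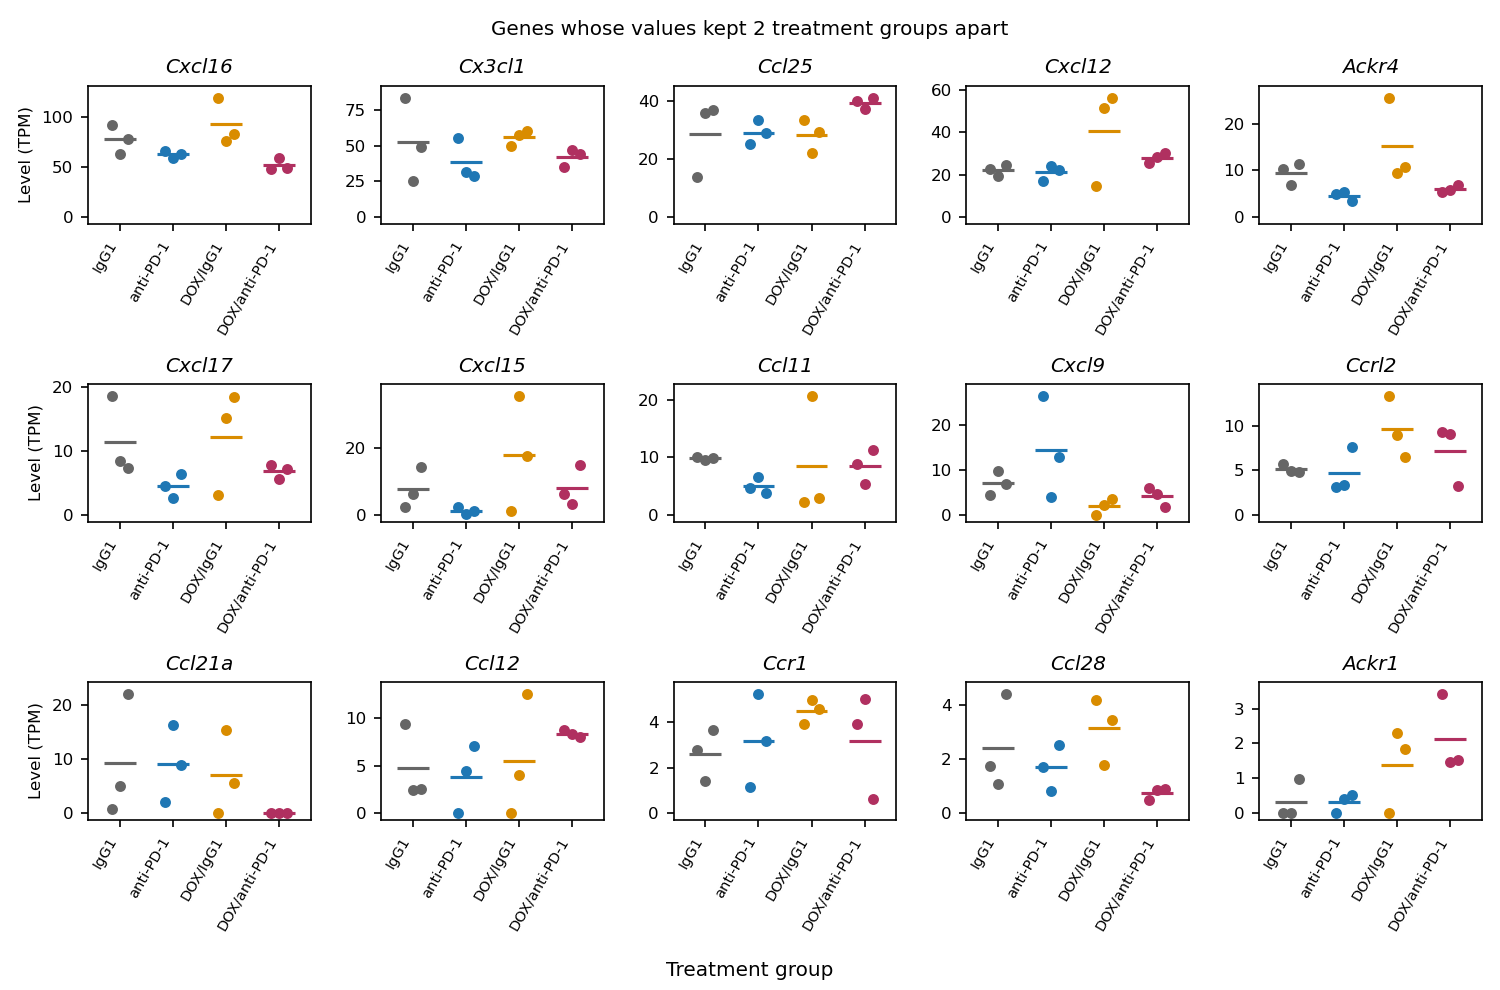
Each panel shows 1 of the 15 members whose values kept 2 groups apart in at least 1 of 4 comparisons, with the level in TPM on the vertical axis, the 4 groups on the horizontal axis, a point per tumor and a line at each group mean. In the DOX/IgG1 group 1 point often lies far from the other points, and Ccl21a lies at 0 in the DOX/anti-PD-1 group.

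Doxorubicin under PD-1 blockade is addressed by the anti-PD-1 tumors with and without it. Cxcl15, Ccl12, Ackr1, Ccl25 and Cxcl12 were higher in every DOX/anti-PD-1 tumor. Ccl21a and Cxcl16 were lower in every one. Ccl21a, a ligand of CCR7 made by lymph node stroma and lymphatic vessels, was listed at 0 in each tumor of the DOX/anti-PD-1 group, while the anti-PD-1 tumors had 1.97, 16.3 and 8.80 TPM. In the IgG1 tumors it was at 0.80, 5.01 and 22.1 TPM, and in the DOX/IgG1 tumors it was at 0 in replicate 1 and at 15.4 and 5.49 TPM in replicates 2 and 3. Of the 12 tumors, 4 were thus listed at 0 for Ccl21a, all of them with doxorubicin. The near-identical Ccl21b was at 3.40, 0.56 and 1.23 TPM in the DOX/anti-PD-1 tumors, at 3.31 TPM in DOX/IgG1 1 and at 4.27 TPM in IgG1 2, and at 0.01 TPM or less in the other 7. Each tumor with Ccl21a at 0 thus had values above 0 for the copy, and the zeros do not show that both were absent.

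Markers of lymph vessels and lymph nodes were mixed in this comparison. The 4 lymphatic endothelial markers summed to 43.0, 90.4 and 77.5 TPM with DOX/anti-PD-1 and to 59.6, 57.8 and 61.3 TPM with anti-PD-1, but Pdpn, at 69.5 TPM, makes up most of these sums. Pdpn and Flt4 were higher on average, and Lyve1 and Prox1 were lower. Prox1 was at 0.92, 2.80 and 0.21 TPM with DOX/anti-PD-1 and at 5.11, 1.36 and 4.07 TPM with anti-PD-1. The 6 markers of B cells and lymph nodes summed to at most 6.86 TPM in any tumor, led by Fcer2a at 1.05 TPM, and only 1 of them was tested. None of either list was at 0 in every tumor.

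Cxcl15 was at 6.12, 3.38 and 15.1 TPM in the DOX/anti-PD-1 tumors, with a log2 fold change of 1.95 (SE 0.58) from the anti-PD-1 tumors given before. The same 3 anti-PD-1 tumors serve as the low group in both comparisons of Cxcl15. In the DOX/IgG1 tumors Cxcl15 was at 1.06, 35.7 and 17.5 TPM. The lowest and the highest value of Cxcl15 outside the anti-PD-1 group were thus both in DOX/IgG1.

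Ccl12, a rodent ligand of CCR2, was at 8.80, 8.31 and 7.99 TPM with DOX/anti-PD-1, a mean of 8.37 ± 0.41 TPM (SD, n = 3). The anti-PD-1 tumors had 0, 4.44 and 7.02 TPM, and the log2 fold change was 1.41 (SE 0.70), or 0.50 without anti-PD-1 1, the tumor at 0. Outside these groups Ccl12 was at 9.41, 2.38 and 2.47 TPM with IgG1 and at 0, 3.95 and 12.6 TPM with DOX/IgG1. The DOX/anti-PD-1 tumors were thus the evenest of the groups, within the range of IgG1 and DOX/IgG1.

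Ackr1 was at 3.42, 1.47 and 1.51 TPM with DOX/anti-PD-1 and at 0, 0.39 and 0.52 TPM with anti-PD-1, with a log2 fold change of 1.23 (SE 0.50). The IgG1 tumors had 0, 0 and 0.96 TPM and the DOX/IgG1 tumors 0, 2.30 and 1.85 TPM. Above 1 TPM were 5 tumors, all with doxorubicin, and the sixth doxorubicin tumor was DOX/IgG1 1.

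Cxcl16 was at 47.4, 58.6 and 48.7 TPM with DOX/anti-PD-1 and at 65.6, 59.0 and 62.7 TPM with anti-PD-1, with a log2 fold change of -0.28 (SE 0.21). The gap between the nearest tumors was small. Ccl25 was at 40.0, 37.2 and 41.1 TPM and at 25.0, 33.3 and 28.9 TPM, with a log2 fold change of 0.43 (SE 0.23). Cxcl12 was at 25.4, 28.5 and 30.3 TPM and at 17.1, 24.3 and 22.4 TPM, with a log2 fold change of 0.40 (SE 0.26), or 0.25 without anti-PD-1 1. After the median of ratios scaling the groups of Ccl25 and of Cxcl12 overlapped, and the other 5 members stayed apart. The scaling moved the median of all genes from 0.11 to -0.01, a shift of -0.12.

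Limma called 0 of the 37 tested members, beside 0 of 13736 genes (0%), and the smallest adjusted p of a member was 0.429, that of Ccl21a. At an unadjusted p below 0.05 stood 3 members (8.1%), beside 1185 genes (8.63%), and 2 to 5 members when each tumor was left out in turn. Groups were apart and higher in 5 members, beside 11.1% of all genes, and apart and lower in 2, beside 3.84%. In both directions this was 18.9% of the tested members, beside 14.9% of all genes. The median log2 fold change was 0.03 over the tested members and 0.11 over all genes, and after scaling the members' median was -0.09. When each tumor was left out in turn, it ran from -0.02 to 0.30, below 0 only without DOX/anti-PD-1 2.

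Fibroblast and adipocyte markers were higher with DOX/anti-PD-1. All 6 fibroblast markers were higher, or 5 of 6 after scaling, with Pdgfra turned. They had 4 at an unadjusted p below 0.05 and summed to 759, 1012 and 1157 TPM, against the 449 to 638 TPM of the anti-PD-1 tumors. All 5 adipocyte markers were higher, 4 at an unadjusted p below 0.05. They summed to 476, 101 and 107 TPM, against 45.1, 38.1 and 69.7 TPM, with Adipoq the most abundant at 55.9 TPM and none at 0 in every tumor. All 5 tested markers of macrophages and monocytes were higher, at a median of 0.25, and 3 of 4 tested T cell markers, at 1.02, with 0 at an unadjusted p below 0.05. Fibroblasts are a known source of CXCL12, and the part of these cells in the values of Cxcl12 and the other members was not tested.

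PD-1 blockade under doxorubicin is addressed by the doxorubicin tumors of either antibody. Cxcl16, Cx3cl1, Ccl28 and Ackr4 were lower in every DOX/anti-PD-1 tumor, and Ccl25 was higher in every one. Cxcl16 was at 119, 76.2 and 82.5 TPM in the DOX/IgG1 tumors, a mean of 92.6 ± 23.1 TPM (SD, n = 3). The DOX/anti-PD-1 mean was 51.6 ± 6.12 TPM (SD, n = 3), and the log2 fold change was -0.81 (SE 0.25). Cx3cl1 was at 50.2, 57.8 and 60.8 TPM with DOX/IgG1 and at 35.5, 46.9 and 44.5 TPM with DOX/anti-PD-1, with a log2 fold change of -0.41 (SE 0.24). The IgG1 tumors spanned 25.6 to 83.9 TPM of Cx3cl1, wider than both of these groups.

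Ccl28, a ligand of CCR10 made by mucosal and mammary epithelium, was at 4.16, 1.76 and 3.45 TPM with DOX/IgG1 and at 0.49, 0.84 and 0.89 TPM with DOX/anti-PD-1. Its log2 fold change was -1.20 (SE 0.51). Ackr4 was at 25.5, 9.51 and 10.8 TPM and at 5.31, 5.84 and 6.86 TPM, with a log2 fold change of -1.09 (SE 0.45), or -0.67 without DOX/IgG1 1. DOX/IgG1 1 was the highest tumor for Cxcl16, Ackr4 and, within its group, Ccl28. Ccl25 was at 33.3, 22.2 and 29.3 TPM with DOX/IgG1, below the 37.2 to 41.1 TPM of DOX/anti-PD-1, and its log2 fold change was 0.48 (SE 0.26). Cx3cr1, the receptor of Cx3cl1, was at 23.3, 52.0 and 52.9 TPM with DOX/IgG1 and at 12.2, 27.0 and 19.9 TPM with DOX/anti-PD-1. Its groups overlapped through DOX/IgG1 1, and the log2 fold change was -1.05 (SE 0.41).

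Limma called 0 of the 37 tested members, beside 0 of 13946 genes (0%), with 0.988 as the smallest adjusted p of a member. At an unadjusted p below 0.05 stood 4 members (10.8%), beside 655 genes (4.7%), and 1 to 6 members when each tumor was left out in turn, with 1 without DOX/anti-PD-1 1 or 3. The groups were apart and higher in 1 member, beside 4.27% of all genes, and apart and lower in 4, beside 5.95%. Together these were 13.5% of the tested members and 10.2% of all genes. The median log2 fold change was -0.23 over the tested members and -0.04 over all genes. When each tumor was left out in turn, the members' median ran from -0.33 to 0.13. It was above 0 without DOX/IgG1 2 or DOX/anti-PD-1 1. Without DOX/IgG1 1, limma called 0 members and 4 genes, and 6 members (16.2%) were at an unadjusted p below 0.05, beside 7.54% of all genes. Then 11 members were apart and lower, among them Ccl5, Cxcr6, Cxcl12, Cxcl15, Cxcl17 and Cx3cr1, and Ccl21b and Ccl25 were apart and higher. With 2 tumors in that group, these are 35.1% of the tested members, beside 24.7% of all genes.

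Markers of macrophages and monocytes were lower with DOX/anti-PD-1 in 6 of 6 genes, 1 at an unadjusted p below 0.05. They summed to 171, 293 and 215 TPM, against 207, 300 and 307 TPM with DOX/IgG1, and the groups overlapped. C1qa was the most abundant at 117 TPM, and none was at 0 in every tumor. The 4 salivary markers were lower too, with sums of 19.7, 16.0 and 23.3 TPM with DOX/anti-PD-1. All 4 tested NK cell markers were lower, at a median log2 fold change of -0.99, as were 4 of 5 tested T cell markers, at -0.30, with 0 at an unadjusted p below 0.05. All 4 and all 5 were lower without DOX/IgG1 1, at -1.35 and -1.24, with 2 of each list at an unadjusted p below 0.05. In that fit all 4 salivary markers were lower at an unadjusted p below 0.05, 1 of them called, and 3 of 6 fibroblast markers were lower, all 3 at an unadjusted p below 0.05. The part of all these cells in the lower values of Cx3cr1 and the other members was not tested.

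**Figure D3:**
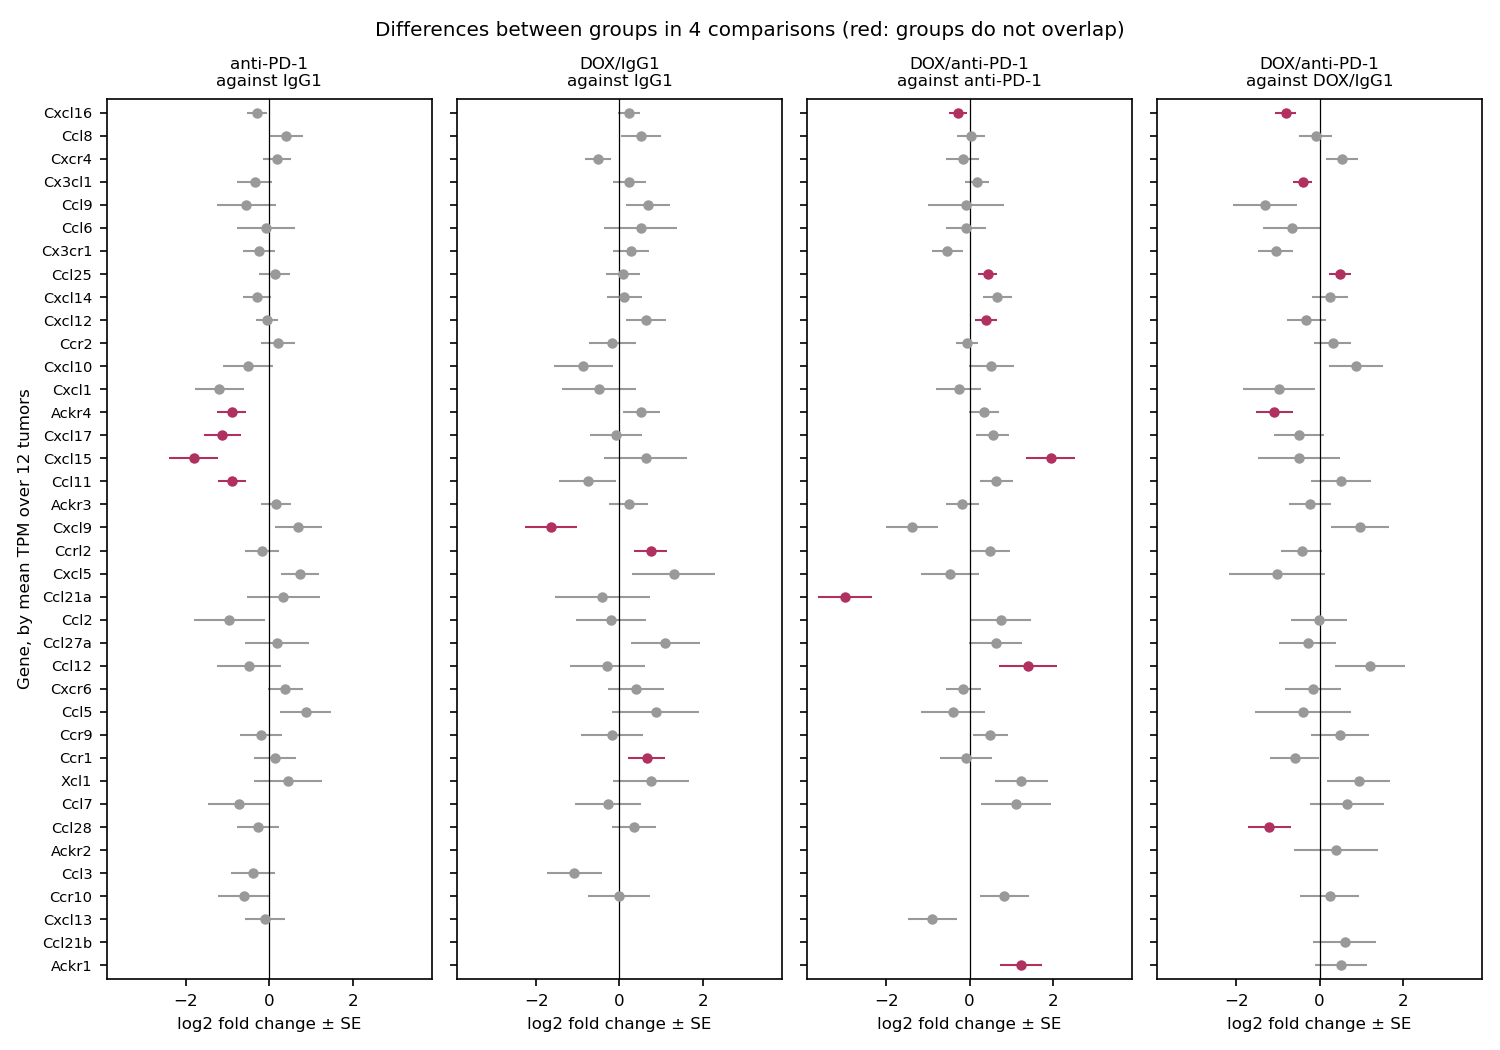
Each panel is 1 comparison, with the log2 fold change of log2(TPM + 1) and its SE on the horizontal axis and the tested members with a mean above 1 TPM on the vertical axis in order of their mean. Red marks members whose groups do not overlap, and Cxcl16 and Ccl25 are red in both panels on the right.

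Doxorubicin over both antibodies sets 6 tumors with it against 6 without it, with the antibody as a term in the fit. Cxcl9 was the member with the smallest adjusted p, 0.240 in limma, and a log2 fold change of -1.51 (SE 0.46). It had a mean of 3.03 TPM in the 6 doxorubicin tumors and of 10.7 TPM in the 6 others. An exact permutation test of Cxcl9, two-sided, with labels permuted within each antibody, gave p = 0.02. Ackr1 followed with a log2 fold change of 0.99 (SE 0.38) and p = 0.04 in the same exact test. Cxcl13, the ligand of the B cell receptor CXCR5, had a log2 fold change of -0.93 (SE 0.37) and an exact p = 0.04. It was at 3.56, 0.90 and 1.87 TPM with IgG1 and at 1.46, 2.24 and 1.51 TPM with anti-PD-1, and at 0 in 3 of the 6 doxorubicin tumors. These exact values are for single genes and are not adjusted.

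Limma called 0 of the 43 tested members, beside 3 of 14735 genes (0.0204%). At an unadjusted p below 0.05 were 5 members (11.6%), 1 higher and 4 lower, beside 12% of all genes. Leaving out each tumor in turn gave 3 to 6 members. The groups of 6 were apart in 0 members in either direction, beside 0.597% of all genes that were higher and 0.122% that were lower. The median log2 fold change was 0.21 over the tested members and 0.12 over all genes. Scaling moved the latter to 0.01, a shift of -0.11, and the former to 0.11, and Ackr3 was the only tested member whose direction differed. When each tumor was left out in turn, the members' median ran from 0.03 to 0.27.

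The count of called members rests on DOX/IgG1 1. Without this tumor limma called 2 members, Cxcl15 with a log2 fold change of 1.90 and an adjusted p of 0.0674, and Ackr1 with 1.26 and 0.0971. Cxcl15 was at 3.38 to 35.7 TPM in the 5 remaining doxorubicin tumors and at 0.29 to 14.2 TPM in the 6 others, so these overlapped. Ackr1 and Cxcl12 were apart and higher without this tumor, and these are 4.65% of the tested members, beside 1.81% of all genes. In that fit 212 of all genes were called, against 3 with it. Then 6 members (14%) were at an unadjusted p below 0.05, 5 higher and 1 lower, beside 14.7% of all genes, so that the balance of directions turned. The 1 lower member was Cxcl9, at -1.21 (SE 0.42), while Cxcl13, at -0.80 (SE 0.38), no longer stood below 0.05.

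Cell markers differed in the same fits. Over all 12 tumors, the tested markers of macrophages and monocytes (6), T cells (5), NK cells (4), adipocytes (5) and salivary gland (4) were all higher with doxorubicin, as were 5 of 6 of fibroblasts, with 3 salivary markers and 1 of each other list but NK cells at an unadjusted p below 0.05. After scaling by the median of ratios, 5 of the 6 macrophage and monocyte markers were higher. So were 4 of 5 T cell and 4 of 6 fibroblast markers, and the other lists named kept their counts. When DOX/IgG1 1 was left out, unscaled, all tested markers of these lists were again higher, now with all 6 fibroblast markers. Called were 2 fibroblast, 1 T cell and 1 salivary marker, with 3 adipocyte markers at an unadjusted p below 0.05. An epithelial marker was called too, but this list was mixed, with 3 of 7 markers higher and 4 lower in both fits. Each fit had 1 higher and 1 lower epithelial marker at an unadjusted p below 0.05. Of the 4 dendritic cell markers 3 were lower over all 12 tumors, at a median log2 fold change of -0.44. Without DOX/IgG1 1, 2 of the 4 were lower. The part of these cells in the values of Cxcl15, Ackr1 and the other members was not tested.

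PD-1 blockade over both chemotherapy arms sets 6 tumors with anti-PD-1 against 6 with IgG1, with doxorubicin as a term in the fit. Ackr4 was lower with anti-PD-1, at a mean of 5.29 TPM against 12.4 TPM, and its log2 fold change was -0.999 (SE 0.27). The exact permutation test within chemotherapy arms gave p = 0.005 for Ackr4, the smallest that its 400 splits allow. Over the 6 against 6 tumors its values overlapped through IgG1 2 and DOX/anti-PD-1 3, at 6.80 and 6.86 TPM. Cxcl16 had means of 57.0 TPM with anti-PD-1 and 85.2 TPM with IgG1, a log2 fold change of -0.55 (SE 0.17) and an exact p of 0.01. Its values overlapped through IgG1 2, at 63.2 TPM, and anti-PD-1 1, at 65.6 TPM. Ccl28 had a log2 fold change of -0.74 (SE 0.35) and an exact p of 0.05. Of the markers, all 6 of macrophages and monocytes were lower, 2 of them at an unadjusted p below 0.05, as were all 4 tested of NK cells, 4 of 5 of T cells, 6 of 7 of epithelium and 3 of 4 of salivary gland, with 2 salivary markers at an unadjusted p below 0.05. Dendritic cell markers (4 of 4), fibroblast markers (5 of 6, or 3 of 6 after scaling) and endothelial markers (4 of 5) were lower too. Of these, 1 endothelial marker was at an unadjusted p below 0.05. Higher were all 3 tested neutrophil markers and 3 of 4 of lymphatic endothelium, whose 1 lower marker was at an unadjusted p below 0.05. The part of all these cells in the values of the members was not tested.

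None of these passed the test over all genes. The adjusted p in limma was 0.727 for Ackr4, the smallest of a member, and 0.832 for Cxcl16. Limma called 0 of the 43 tested members, beside 0 of 14735 genes (0%). At an unadjusted p below 0.05 were 2 members (4.7%), beside 691 genes (4.69%). Without DOX/IgG1 1 these were 6 members (14%), all lower, beside 917 genes (6.22%), with 0.438 as the smallest adjusted p of a member and 0 called. All 6 fibroblast markers and all 4 each of dendritic cells, salivary gland and skeletal muscle were lower in that fit. So were 4 of 5 T cell markers, 3 of them at an unadjusted p below 0.05. All 3 tested neutrophil markers and 3 of 4 of lymphatic endothelium were higher. Leaving out each tumor in turn gave 2 to 6 members, with 5 without anti-PD-1 2 and 4 without IgG1 1, IgG1 2 or anti-PD-1 3. Groups were apart in 0 members, with and without DOX/IgG1 1, beside 0.0882% of all genes higher and 0.115% lower. The median log2 fold change was -0.10 over the tested members and -0.03 over all genes. When each tumor was left out in turn, the members' median ran from -0.20 to -0.02.

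**Figure D4:**
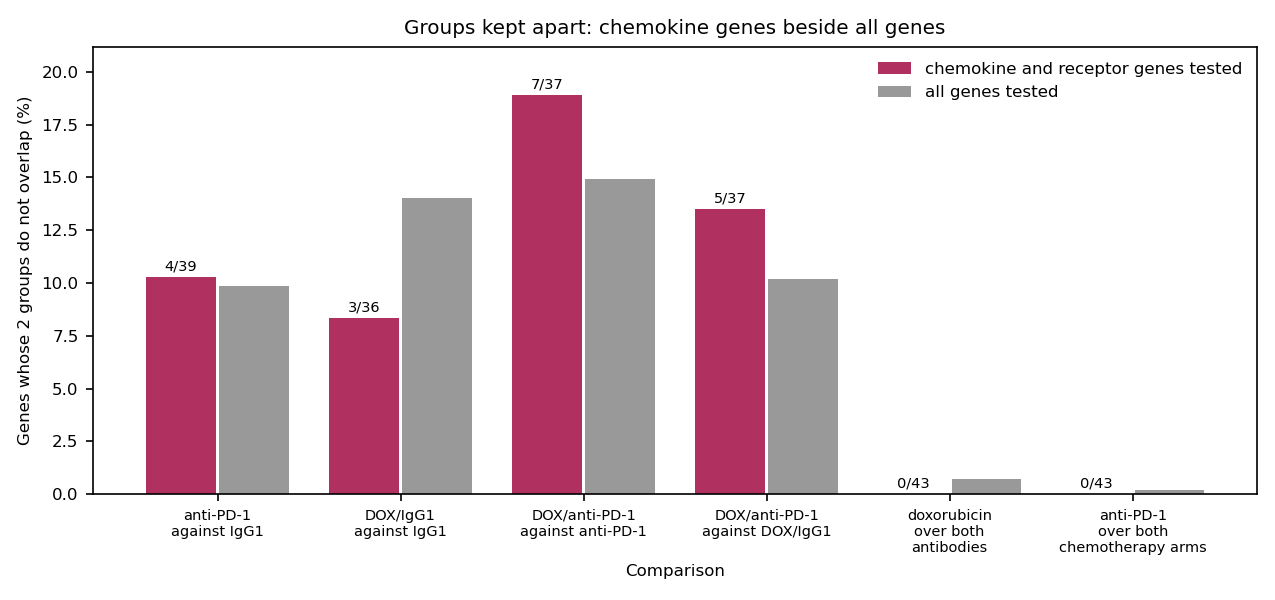
Bars give the share in percent of genes whose groups do not overlap in each of 6 comparisons, for the tested members and for all tested genes, with the members' counts written above the bars. Members lie above all genes in 3 comparisons and below them in the other 3, and with 6 tumors against 6 none is apart.

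The interaction asks whether the difference with doxorubicin is itself different between the antibodies. Limma called 0 of the 43 members, beside 1 of 14735 genes (0.00679%), and 0 members were at an unadjusted p below 0.05, beside 694 genes (4.71%). The smallest adjusted p of a member was 0.993. Without DOX/IgG1 1, limma called 0 members and 1 gene, and 3 members (7%), Ccl21b higher and Ccl21a and Cxcl12 lower, were at an unadjusted p below 0.05, beside 951 genes (6.45%), with 0.690 as the smallest adjusted p of a member. Leaving out each tumor in turn gave 0 to 3 members. The largest interactions were those of Ccl21a, at -2.58 (SE 1.44) on the log2 scale, Cxcl5, at -1.77 (SE 1.34), and Ccl12, at 1.70 (SE 1.26), all with wide errors. When each tumor was left out in turn, they ran from -3.70 to -1.68, from -2.93 to -0.59 and from 0.69 to 2.57. They were -3.70, -0.59 and 0.69 without DOX/IgG1 1. No difference between the antibodies in the response of a member to doxorubicin passed this test, with or without DOX/IgG1 1.

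By role, the lists of members had few genes at an unadjusted p below 0.05. Of the 7 neutrophil-attracting CXC ligands and their receptors, 4 were tested, and with DOX/anti-PD-1 all 4 were lower than with DOX/IgG1, at a median log2 fold change of -0.73 and with 0 at an unadjusted p below 0.05. This rests on DOX/IgG1 1, since without it 1 of the 4, Cxcl15, was lower, at a median of 0.06. With anti-PD-1 alone 2 of the 4 were lower than with IgG1. With doxorubicin over both antibodies 3 of the 4 were higher, and 1 of the 4 was without DOX/IgG1 1. This list summed to 78.9, 42.9 and 26.7 TPM in the DOX/IgG1 tumors and to 11.4, 12.3 and 29.9 TPM in the DOX/anti-PD-1 tumors, which overlap. Neutrophil markers were low, with at most 13.8 TPM summed over 5 genes in any tumor, S100a8 the most abundant at 3.77 TPM and Ly6g, a defining marker, at 0 in all 12 tumors. In the CCR2 axis, 4 of 5 tested genes were higher with DOX/anti-PD-1 than with anti-PD-1, at a median of 0.76 beside 0.11 for all genes, and 0 of them were at an unadjusted p below 0.05. The 1 lower gene was Ccr2, at -0.06. All 5 tested markers of macrophages and monocytes were higher in this comparison too, also after scaling, while the direction of Ccl8, at 0.03, turned after it. With DOX/IgG1 against IgG1, 1 of the 5 genes of the CCR2 axis was higher, at a median of -0.20 beside 0.12. Without DOX/IgG1 1 it was 3 of 5, at 0.16 beside 0.15. Among the 5 atypical receptors all were higher with doxorubicin over both antibodies, at a median of 0.62 beside 0.12 for all genes, and without DOX/IgG1 1 all were higher too, at 0.50 beside 0.13. Only Ackr1 of these was at an unadjusted p below 0.05, and the direction of Ackr3, at 0.02, turned after scaling.

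The other lists of members, except the CXCR3 axis, were mixed in direction over both antibodies. Of the CXCL12 axis 2 of 3 genes were higher with doxorubicin, of the other CXC genes 3 of 5 and of the XC and CX3C genes 2 of 3. Of the homing and barrier chemokines 5 of 8 were higher. Both tested genes of the CXCR3 axis, Cxcl9 and Cxcl10, were lower, at a median of -0.84, or -0.68 without DOX/IgG1 1. Each of these lists had 0 or 1 gene at an unadjusted p below 0.05. Leaving out DOX/IgG1 1 gave the same counts of higher genes for each list counted here.

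Some genes act with the chemokines but lie outside the symbol rule. The chemokine signaling list of 34 G proteins, kinases, adaptors and regulators was expressed throughout, with all 34 means above 1 TPM and Gnai2 the highest at 248 TPM. With doxorubicin over both antibodies 25 of the 34 were higher, 9 of them at an unadjusted p below 0.05, beside 12% of all genes, and 0 were called. Their median log2 fold change was 0.27, beside 0.12 for all genes. After scaling 23 of the 34 were higher, at a median of 0.15 beside 0.01. The count without DOX/IgG1 1 was 30 of the 34, 13 of them at an unadjusted p below 0.05, beside 14.7% of all genes. With anti-PD-1 over both arms 22 of the 34 were lower, 2 of them at an unadjusted p below 0.05, at a median of -0.14 beside -0.03, and without DOX/IgG1 1 it was 27, 4 of them below 0.05.

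Of the 13 genes in the inducer list, cytokines, transcription factors and the NF-kB inhibitors Nfkbia and Tnfaip3, 11 were tested and 10 of them were higher with doxorubicin, 3 at an unadjusted p below 0.05, beside 12% of all genes, and 0 called. Their median was 0.30, beside 0.12 for all genes, and after scaling 9 of the 11 were higher, at a median of 0.19 beside 0.01. It was also 9 without DOX/IgG1 1, with 2 below 0.05. With anti-PD-1 over both arms all 11 were lower, 1 at an unadjusted p below 0.05, at a median of -0.17 beside -0.03. After scaling 10 of the 11 were lower, and without DOX/IgG1 1 it was 8. The inducers summed to 284, 277 and 265 TPM with DOX/IgG1, above the 200, 189 and 221 TPM with IgG1. Of all tested genes, 9.31% were apart and higher in the same comparison. Irf1 was the most abundant at 63.5 TPM, and Il17a was at 0 in all tumors. The 7 chemokines and relatives outside the symbol rule, such as Mif and Pf4, were led by Cd74, a receptor of MIF, at 295 TPM. With doxorubicin over both antibodies 5 of these 7 were higher, 1 at an unadjusted p below 0.05.

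Ligands and their receptors were then compared across the 12 tumors, in the 11 known pairs in which both genes reached 1 TPM in at least 6 tumors. Of these, 9 are reported here. Their Pearson correlations of log2(TPM + 1) ran from -0.462 to 0.364, and none passed adjustment over the 11 pairs, with 0.714 as the smallest adjusted permutation p.

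Cxcl16 and Cxcr6 had the lowest r, -0.462 (permutation p = 0.130, 0.714 after adjustment), with a rho of -0.259 (permutation p = 0.418, 0.974 after adjustment). Cxcr6 was at 2.09, 5.30 and 4.41 TPM with IgG1, 6.02, 6.25 and 3.57 TPM with anti-PD-1, 1.19, 11 and 8 TPM with DOX/IgG1 and 6.89, 2.96 and 4.47 TPM with DOX/anti-PD-1. The lowest tumors of Cxcr6, IgG1 1 and DOX/IgG1 1, were the highest of Cxcl16, and without these 2 tumors r was 0.344, so the pooled value rests on them. Within groups, after subtracting group means, r was -0.906, and it was -0.806 without DOX/IgG1 1, an alternative chosen after the values were seen. In each group the tumor with the highest Cxcr6 had the lowest Cxcl16.

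Cx3cl1 and Cx3cr1 had r = -0.161 (permutation p = 0.616) over the 12 tumors and -0.516 within groups, and Cxcl12 and Cxcr4 had r = -0.095 (permutation p = 0.768). The adjusted p was 0.727 and 0.768, and the rho -0.154 (permutation p = 0.636) and -0.014 (permutation p = 0.974). Without the 2 tumors farthest from the median of the ligand, r was 0.256 and 0.408. For the other 6 pairs r lay between -0.313 for Ccl2 and Ccr2 and 0.364 for Cxcl12 and Ackr3.

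**Figure D5:**
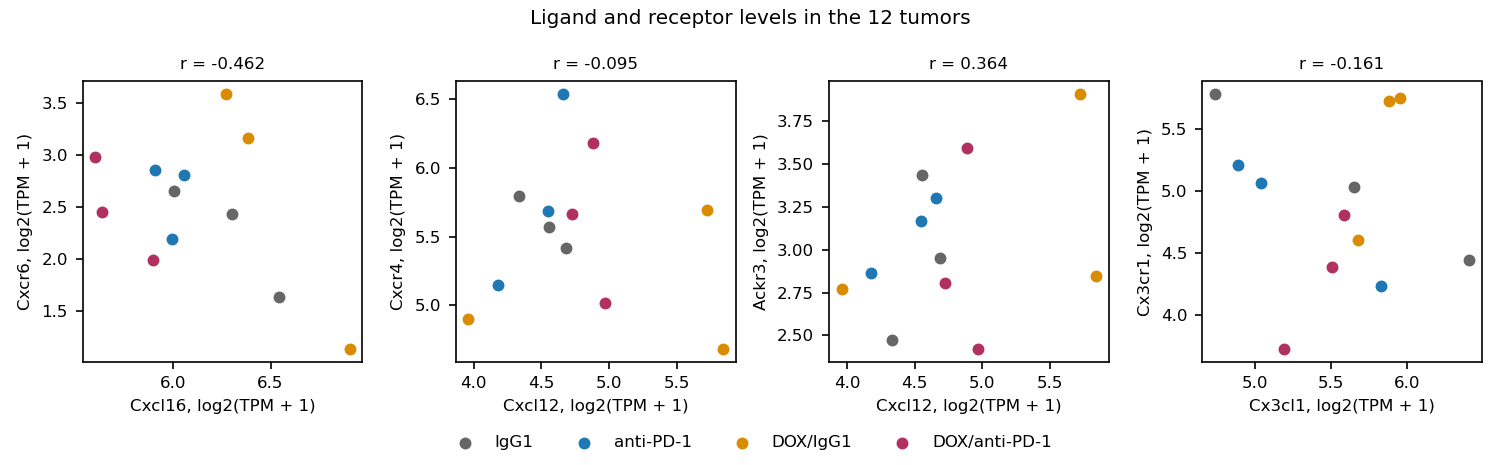
Each panel plots the log2(TPM + 1) of a ligand on the horizontal axis against that of its receptor on the vertical axis, with a point per tumor colored by group and Pearson's r above. Cxcl12 and Ackr3 have r = 0.364, and the point with the highest Cxcl16, DOX/IgG1 1, has the lowest Cxcr6.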

How the data were processed

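The authors used skewer for trimming, STAR for alignment to mm10 and RSEM for quantification, in versions that are not given, and deposited log2(TPM + 1) per gene. The log2 step was reversed for levels. TPM keep no depth, so the depth of each tumor is not known and counting errors are not given. Genes that reached 1 TPM in at least 3 tumors of a fit were tested with limma 3.58.1 (R 4.3.3), through lmFit and eBayes (trend on the mean), two-sided, with Benjamini-Hochberg adjustment over all tested genes. Single genes had an exact permutation test with 20 splits for 3 against 3 tumors, or 400 splits within the arms of the other treatment. Correlations used 100000 permutations. Other steps used Python 3.11.15, numpy 2.4.6, scipy 1.17.1, pandas 2.3.3 and matplotlib 3.10.9.

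Named genes were members that a comparison called or whose groups were apart, the 6 ligands and 6 receptors with the highest means, the partners of the pairs and members at 0 in all tumors. The rule does not cover every member named here. Among those it does not cover, Cxcl14, Cxcl3, Cxcr1, Ccr8, Ccr1l1, Ccl24, Ccl27a, Ackr2 and Ccl21b were chosen once their values had been seen. Members and lists were chosen with earlier results of these data known. Alternatives were a pseudocount of 0.1, no filter on low values, scaling by the median of ratios, the replicate number as a block, all 12 tumors in 1 fit and leaving out each tumor. Cxcl11 and Ccl21c are not in the files and were not analysed here. The limma step was also tested on simulated data. A gene that the rule covers is included in counts and sums but is not reported here.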

Additional observations from a re-analysis of the deposited data

How the results depend on the processing

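The direction of the members whose groups were apart held in all 209 alternative values of their log2 fold changes. For groups that are apart this was fixed in advance in every alternative but the scaling by the median of ratios. Only the scaled values could have turned. The number of called members was 0 in all but 1 setting. The pseudocount of 0.1 moved the sizes of the low genes, with -2.82 for Cxcl9 (DOX/IgG1 against IgG1), 2.52, 2.73 and -6.07 for Ccl12, Ackr1 and Ccl21a (DOX/anti-PD-1 against anti-PD-1) and -1.89 for Ccl28 (DOX/anti-PD-1 against DOX/IgG1). Without a single tumor, called members ranged from 0 to 2 for doxorubicin over both antibodies, with 2 when DOX/IgG1 1 was left out.

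The number of called genes moved more. Leaving out each tumor gave 0 to 4 for anti-PD-1 against IgG1 (4 without IgG1 1, 2 without IgG1 2, 1 without anti-PD-1 2) and 0 to 122 for DOX/IgG1 against IgG1 (122 without DOX/IgG1 1, 2 without DOX/IgG1 2, 0 without DOX/IgG1 3 or any IgG1 tumor). It gave 0 to 4 for DOX/anti-PD-1 against anti-PD-1 (4 without DOX/anti-PD-1 2, 1 without DOX/anti-PD-1 1 or 3 or anti-PD-1 1). For DOX/anti-PD-1 against DOX/IgG1 it was 0 to 4 (4 without DOX/IgG1 1, 1 without DOX/anti-PD-1 3). Doxorubicin over both antibodies had 0 to 212, with 212 without DOX/IgG1 1, 27, 6 and 1 without DOX/anti-PD-1 2, 1 and 3, 5 without anti-PD-1 3, and 0 without IgG1 2 or 3, anti-PD-1 1 or DOX/IgG1 3. The interaction had 0 or 1, and 1 only without DOX/IgG1 1 or DOX/anti-PD-1 3 among the tumors. Scaling by the median of ratios gave 3 for DOX/anti-PD-1 against DOX/IgG1, 14 for doxorubicin over both antibodies and 0 for the interaction. All 12 tumors in 1 fit gave 2 for DOX/anti-PD-1 against DOX/IgG1. For the interaction, the pseudocount of 0.1 gave 0 and no filter gave 3. With the replicate number as a block it was 2 for DOX/IgG1 against IgG1, 1 for doxorubicin over both antibodies and 0 for the interaction. The cause was not tested. Deviations of same-numbered tumors from their group means had r from -0.0963 to 0.134, and the same number was the closest match in 6 of 12 cases, beside 4 expected by chance. Whether the number marks a pairing is not known, and it was not used as one.

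The number of members whose groups were apart ranged, without each tumor in turn, from 5 to 9 for anti-PD-1 against IgG1 (9 without IgG1 1, 7 without IgG1 2 or anti-PD-1 3). It ranged from 4 to 9 for DOX/IgG1 against IgG1 (9 without DOX/IgG1 1, 7 without DOX/IgG1 2, 6 without IgG1 1, 5 without IgG1 3). For DOX/anti-PD-1 against anti-PD-1 it was 9 to 13 (13 without either replicate 2, 11 without anti-PD-1 1), and for DOX/anti-PD-1 against DOX/IgG1 6 to 13 (13 without DOX/IgG1 1, 10 without DOX/anti-PD-1 2, 8 without DOX/IgG1 2). Over both antibodies it was 0 to 2 (2 without DOX/IgG1 1), and over both chemotherapy arms 0 to 2 (2 without IgG1 2, 1 without anti-PD-1 1 or DOX/anti-PD-1 3). Fewer tumors make it easier for groups to be apart, and in these settings the share of all genes apart was 16.9% to 24.7%, 21.5% to 32.6%, 21.9% to 28.8%, 17.2% to 24.7%, 0.937% to 1.81% and 0.251% to 0.563%, in the same order. With the pseudocount of 0.1, scaling or DOX/IgG1 1 left out, 32 values of r kept their sign and 1, that of Ccl28 and Ccr10 without DOX/IgG1 1, did not. Without the 2 tumors farthest from the ligand's median, r turned for Cxcl16 and Cxcr6 (0.344), Cx3cl1 and Cx3cr1 (0.256) and Cxcl12 and Cxcr4 (0.408). Within groups it turned for Cxcl12 and Cxcr4 (0.205) and, without DOX/IgG1 1, also for Ccl28 and Ccr10 (0.042).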
